A study of Homo sapiens with 2 samples.

Results

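The 43 genes described here encode core subunits of the spliceosome, the RNA and protein machine that removes introns from messenger RNA precursors. They were chosen by symbol from the known composition of the machine, and all 43 symbols were found among the 52402 gene symbols of the tables. RNA was sequenced from DLD1, a human colorectal adenocarcinoma line grown in serum-supplemented medium. One library (the control) carries the genotype label WT and the other the label HERV-R Knockout, HERV-R being a human endogenous retrovirus. The protocol text, which both libraries share, describes transfection of vectors for Cas9 and a guide RNA followed by hygromycin selection of colonies. What the control cells received, whether either library came from 1 clone, and where the guide cuts are not stated in the sources at hand. By its title, the study asks how loss of the HERV-R envelope bears on tumorigenic traits of colorectal cancer cells.

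Each group had 1 library, so there was no spread between replicates and no test of the knockout was possible. The control library had a total of 21881122 counts and the other 16406308. Levels are counts per 1000000 counts of the library (CPM), and each ratio is the level in the library labelled knockout divided by that in the control. Each ratio is of CPM as measured, with an exact 95% counting interval (Clopper-Pearson), which covers counting error only. The log2 ratio was taken after 1 CPM was added to both libraries. A gene was called measured if its mean over both libraries reached 1 CPM. It was called higher if its log2 ratio reached 1 (2-fold), and lower if it was -1 or below. By this rule 857 of 12644 measured genes were higher (6.78%) and 719 lower (5.69%), and the median log2 ratio of all of them was 0.12. ERV3-1, which encodes the HERV-R envelope protein and was taken as the targeted gene, had 5.80 CPM in control cells against 7.62 CPM under the knockout label. Its RNA was therefore not lower under the knockout label, and whether the gene was edited was not tested. The overlapping read-through gene ERV3-1-ZNF117 had 10.05 and 10.6 CPM. ZNF117 had 0 control counts and 46 under the knockout label, and was called higher. Every direction below rests on the knockout label. Of 10 colon epithelium markers 7 were measured, EPCAM with 701 and 750 CPM, and the list summed to 11546 and 5816 CPM. KRT8, KRT18 and KRT19 were lower, CDX2 was higher (99.4 and 298 CPM), and EPCAM, CDH1 and VIL1 lay between, while KRT20 and CDX1 were listed at 0. Markers of fibroblasts summed to 5.76 and 2.80 CPM and those of endothelium to 0.640 and 0.549 CPM. Markers of blood and immune cells summed to 38.7 and 66.9 CPM, nearly all of it CORO1A (36.1 and 65.6 CPM), with PTPRC listed at 0 in both libraries. PTPRC, KRT20 and LGALS4 (8 counts in each library) each stand on 2 rows of the deposited counts, and their low values are not read as levels. The part of these marker differences in the results below was not tested. CPM is a share of the library, and in bulk RNA fewer cells with a transcript and less of it per cell cannot be told apart.

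The spliceosome is assembled anew on each intron from small nuclear ribonucleoproteins (snRNPs), each a small nuclear RNA with its proteins. U1 binds the 5′ splice site, while SF1 and the U2AF pair bind the branch site and the 3′ end of the intron. U2 then replaces SF1 at the branch site, and U4, U5 and U6 join as a preassembled tri-snRNP. The PRP19 complex enters as the machine is activated for catalysis. A ring of Sm proteins surrounds the RNA of U1, U2, U4 and U5, and a related LSm ring binds the end of U6.

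Most core subunits had a ratio above 1, and 1 of them passed the 2-fold rule. Of the 43 genes 39 were measured. SF1 was higher (2.56% of the measured subunits, against 6.78% of all measured genes), 0 were lower (against 5.69%) and 38 lay between. The log2 ratios ran from -0.12 for LSM3 to 1.06 for SF1, with a median of 0.36. The ratio was above 1 for 35 of 39 (89.7%), against 58.1% of all genes. It lay above the median of all genes for 32 of 39. The counting interval lay above 1 for 33 subunits (84.6%, against 44.8% of all genes) and below 1 for LSM3 and SF3B2 (against 30.5% of all genes). An interval narrows as counts rise. The lowest mean among the subunits was 23.9 CPM, while all genes reach down to 1 CPM, so these shares are not compared at like counts. At a 1.5-fold rule 9 were higher, 23.1% of the subunits against 20.3% of all genes, and 0 were lower against 13.2%. The spread among the subunits (SD 0.30 over genes, on the log2 scale) was narrower than that among all genes (SD 0.68), or among the 7863 genes whose mean reached 20 CPM (SD 0.61), a minimum chosen after the values had been seen.

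Other scalings of the libraries lower each log2 ratio by 0.12 to 0.16, and they change the sign of the subunits nearest 0. With the trimmed mean of M values (TMM) 32 subunits were above 0, with the upper quartile 31 and with the median of gene ratios 29. The members that turned were LSM8, SF3A2 and LSM4 under each of these, SNRPA under the last 2, and SF3B1 and SF3A1 under the last. The number above the median of all genes was 32 under each of the 3, since that median moves with the scaling. The subunits whose counting interval lay above 1 were 25, 25 and 23 with TMM, the upper quartile and the median of gene ratios, in place of 33, and those with an interval below 1 were 4, 5 and 6 in place of 2.

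**Figure D1:**
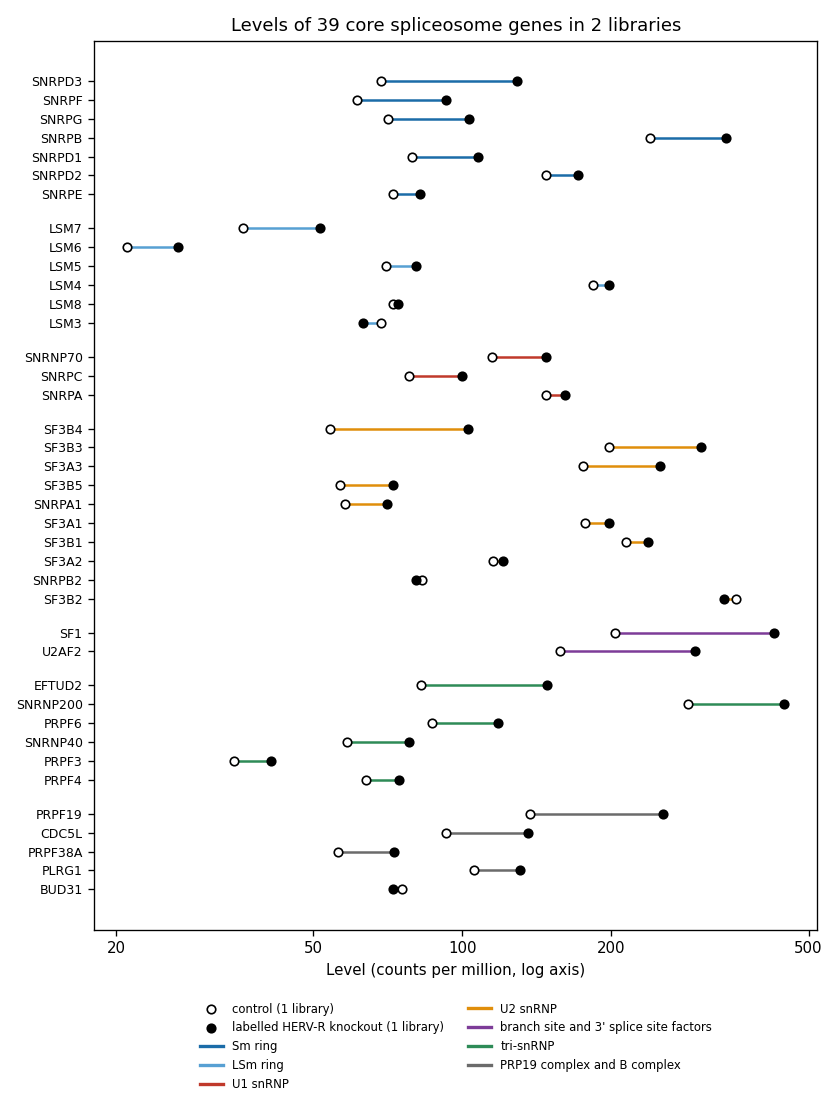
Level of each of the 39 measured core subunits in the control (open circles) and the library labelled knockout (filled circles), in CPM on a log axis, grouped by sub-complex. The filled circle lies to the right for 35 of 39 genes, and the exceptions are LSM3, SF3B2, SNRPB2 and BUD31.

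Values could not be read for LSM2, PRPF8, PRPF31 and U2AF1. LSM2, of the LSm ring, and PRPF8, the large U5 protein at the catalytic centre, were listed at 0 in both libraries. PRPF31, of the U4/U6 particle, had 4 control counts and 18 in the library labelled knockout. U2AF1, the small U2AF subunit that reads the AG at the end of the intron, had 4 counts and 3. Every dividing cell uses these genes, so these entries are not read as levels. The symbol LSM2 stands on 6 rows of the tables, PRPF31 on 10 and PRPF8 on 2. Of the 40 members on 1 row 39 were measured, against 0 of the 3 on more than 1 row. Over protein-coding symbols in general, 61.4% of those on 1 row were measured and 20.8% of those on more. U2AF1 stands on 1 row, and its near-identical copy U2AF1L5 had 1 count in each library. The part of repeated rows or copies in these low counts was not tested.

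In the Sm ring all 7 subunits had a log2 ratio above 0 and above the median of all genes, and 0 of them passed the 2-fold rule. Their median log2 ratio was 0.51 (0.17 to 0.90), and their summed level was 739 CPM in control cells against 1027 CPM under the knockout label (ratio 1.39, 1.36 to 1.42). SNRPB, which encodes the B and B′ proteins, had 239 CPM in control cells against 341 CPM under the knockout label (ratio 1.43, 1.37 to 1.48). Its near-identical relative SNRPN had 4 counts and 0, and SNURF, which overlaps SNRPN, had 0 in both libraries. These entries are not read as levels, and how reads were shared between SNRPB and SNRPN was not tested. SNRPD3, the ring's D3 subunit, stood furthest from the control with 68.6 and 129 CPM (ratio 1.88, 1.76 to 2.01). SNRPE, the E subunit, stood nearest to it with 72.6 and 82.0 CPM (ratio 1.13, 1.05 to 1.22).

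The other 4 ring members lay between these. SNRPF had 61.2 and 92.8 CPM and SNRPG 71.0 and 103.0 CPM, ratios of 1.52 and 1.45. SNRPD1, the partner of D2 in the ring, had 79.1 and 107.8 CPM, a ratio of 1.36 (1.28 to 1.46). SNRPD2 had 147 and 171 CPM, a ratio of 1.16 (1.11 to 1.22). The intervals of SNRPD1, SNRPG, SNRPB and SNRPF overlap, those of SNRPD2 and SNRPE overlap, and that of SNRPD3 overlaps none of the other 6. Subunits that occur in equal number in each ring thus had RNA ratios that differed by more than counting error in these 2 libraries. SNRPD3 overlaps GGT1 on the same strand in the annotation (GENCODE release 29), and GGT1 had 29.1 and 32.6 CPM.

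The LSm ring was nearer to the control than the Sm ring. Its 6 measured subunits had a median log2 ratio of 0.16 (-0.12 to 0.50), of which 3 were above the median of all genes. Their summed level was 452 and 494 CPM (ratio 1.09, 1.06 to 1.13), and this interval does not overlap that of the Sm ring. LSM7 was the highest, with 36.1 and 51.6 CPM (ratio 1.43, 1.30 to 1.58). LSM3 was the lowest of all 39 subunits, with 68.6 CPM in control cells against 63.0 CPM under the knockout label (ratio 0.919, 0.849 to 0.996).

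LSM4 had 184 and 198 CPM (ratio 1.08), LSM5 70.1 and 80.7 CPM (1.15) and LSM6 21.1 and 26.7 CPM (1.27). LSM8, the subunit that sets the nuclear ring apart from the cytoplasmic one, had 72.6 and 74.1 CPM, and its interval held 1 (ratio 1.02, 0.946 to 1.10). LSM1, which takes the place of LSM8 in the cytoplasmic ring that promotes decapping of messenger RNA, had 32.6 and 39.9 CPM (log2 ratio 0.28). With TMM, the upper quartile and the median of gene ratios the median of the ring was 0.03, 0.01 and 0.00, so its direction rests on the scaling.

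The proteins particular to U1 were 1.09-fold to 1.29-fold of the control. SNRNP70, the U1-70K protein that binds the first stem-loop of U1 RNA, had 115 CPM in control cells against 147 CPM under the knockout label (ratio 1.29, 1.22 to 1.36). SNRPC, which steadies the pairing of U1 with the 5′ splice site, had 78.0 and 100.1 CPM (ratio 1.28, 1.20 to 1.37). SNRPA, which binds another stem-loop of that RNA, had 147 and 161 CPM (ratio 1.09, 1.04 to 1.15). The intervals of SNRNP70 and SNRPC overlap each other, and that of SNRPA lies below both.

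The U2 proteins spanned the widest range of log2 ratios of the 7 sub-complexes, with 8 of 10 above 0 and a median log2 ratio of 0.22 (-0.08 to 0.91). A range grows with the number of genes, and U2 has the most. The 5 genes of the PRP19 group spanned 0.94 against 0.98 for U2, with a larger SD over genes (0.34 against 0.31). Together the 10 U2 proteins had 1488 and 1776 CPM (ratio 1.19, 1.18 to 1.21). The largest spread was within SF3B, the assembly that clamps the branch site and of which 5 proteins are listed here. SF3B4 had 54.2 CPM in control cells against 102.7 CPM under the knockout label (ratio 1.90, 1.76 to 2.04). SF3B3 had 198 and 304 CPM (ratio 1.53, 1.47 to 1.60). SF3B2, by contrast, had 357 and 338 CPM (ratio 0.949, 0.917 to 0.982). SF3B1, the scaffold that holds the branch-point adenosine, had 214 and 238 CPM (ratio 1.11, 1.07 to 1.16), and SF3B5 had 56.8 and 72.6 CPM (ratio 1.28). The highest and lowest of the 5 differed by 0.98 on the log2 scale, while the 5 genes together had a ratio of 1.20 (1.18 to 1.23). SF3B6 and PHF5A belong to the same assembly but not to the core list. SF3B6 had a ratio of 0.852 (0.804 to 0.903), below that of SF3B2, and PHF5A of 1.54 (1.41 to 1.68).

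In SF3A, which links SF3B to the rest of the particle, SF3A3 had 175 and 251 CPM (ratio 1.43, 1.37 to 1.499). SF3A1 had 177 and 198 CPM (ratio 1.12, 1.06 to 1.17), and SF3A2 115 and 121 CPM, with an interval that held 1 (ratio 1.05, 0.988 to 1.11). SNRPA1 and SNRPB2 bind U2 RNA as a pair. SNRPA1 had 58.0 and 70.6 CPM (ratio 1.22, 1.12 to 1.32) and SNRPB2 83.1 and 80.7 CPM (ratio 0.971, 0.904 to 1.04). SNRPB2 was thus not distinguishable from the control by counting error, and its interval does not overlap that of SNRPA1.

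Of the factors that mark the branch site and the 3′ splice site before U2 arrives, SF1 had the highest ratio of the 39 subunits. U2AF2 lay among the next, beside SF3B4, SNRPD3, PRPF19 and EFTUD2, whose intervals overlap. The interval of SF1 also overlaps that of SF3B4 (1.76 to 2.04). SF1, the branch point binding protein (chromosome 11, 64764606 to 64778542, minus strand, GRCh38), had 203 CPM in control cells against 425 CPM under the knockout label, from 4448 and 6979 counts. Its ratio was 2.09 (2.02 to 2.17), and 94.5% of all measured genes had a lower log2 ratio. The call depends on the scaling, as the log2 ratio was 1.06 with library totals and 0.94, 0.92 and 0.90 with TMM, the upper quartile and the median of gene ratios. U2AF2, the large U2AF subunit that binds the polypyrimidine tract (chromosome 19, 55655035 to 55674716, plus strand), had 157 and 295 CPM (ratio 1.88, 1.80 to 1.96). Both together had 360 and 721 CPM, a ratio of 1.999 (1.94 to 2.06), which does not overlap the interval of any other sub-complex. With 2 measured members, this is a description of SF1 and U2AF2 rather than of a class.

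**Figure D2:**
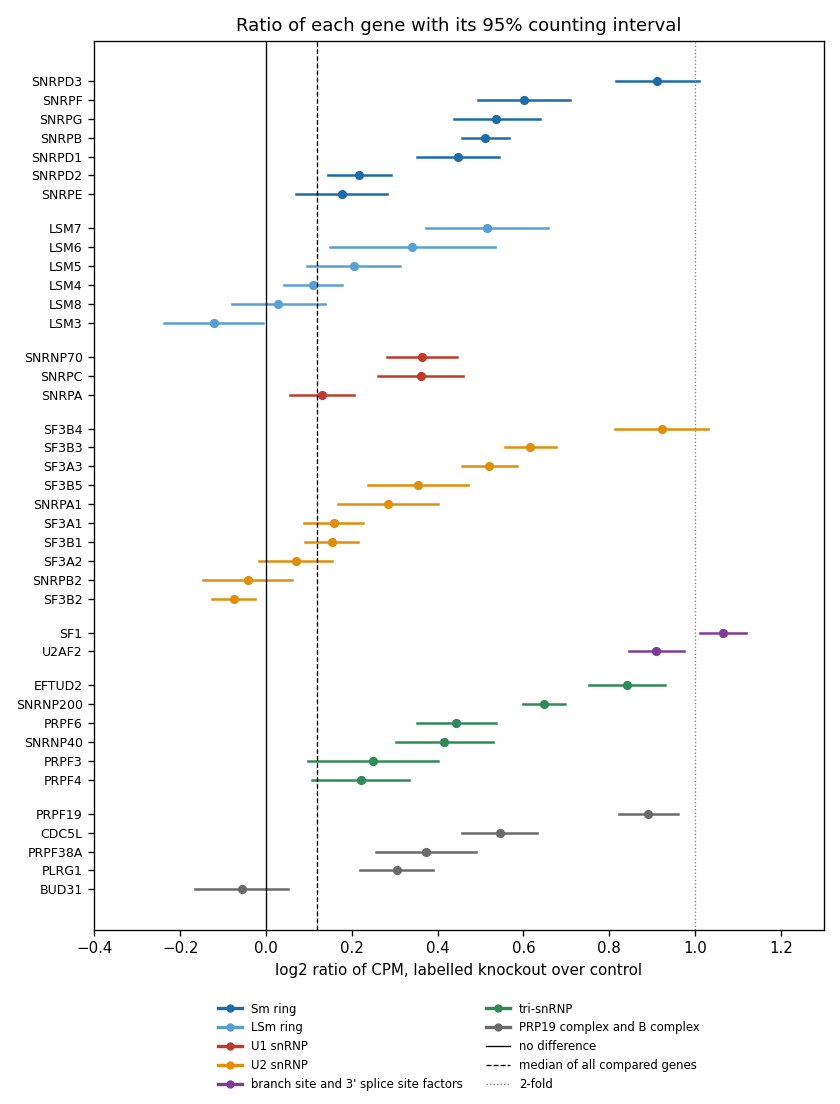
log2 ratio of CPM (library labelled knockout over control, no count added) for each measured subunit, with its 95% counting interval as a bar, grouped and coloured by sub-complex. SF1 lies furthest to the right, and its interval overlaps that of SF3B4. SF3B4, SNRPD3, U2AF2, PRPF19 and EFTUD2 follow with overlapping intervals. The Sm ring lies wholly above 0, and the U2 proteins run from SF3B2 below 0 to SF3B4 near the 2-fold line.

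All 6 measured tri-snRNP proteins of the core list had a ratio above 1, and 0 of them passed the 2-fold rule. The 4 of U5 had higher ratios than PRPF3 and PRPF4 of U4/U6, though not all of their intervals were apart. The 6 measured proteins had a median log2 ratio of 0.42 (0.22 to 0.83), all above the median of all genes, and a summed ratio of 1.48 (1.45 to 1.52). EFTUD2, the GTPase of U5, had 82.6 CPM in control cells against 148 CPM under the knockout label (ratio 1.79, 1.69 to 1.91). SNRNP200, the Brr2 helicase that unwinds U4 from U6, had 285 and 447 CPM (ratio 1.57, 1.52 to 1.62). PRPF6, which bridges U5 and U4/U6, had 86.8 and 118 CPM (ratio 1.36, 1.28 to 1.45), and SNRNP40 58.6 and 78.1 CPM (ratio 1.33, 1.23 to 1.44). The 4 measured U5 proteins summed to a ratio of 1.54 (1.503 to 1.58).

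The U4/U6 proteins PRPF3 and PRPF4, which bind each other, had nearly the same ratio. PRPF3 had 34.6 and 41.1 CPM (ratio 1.19, 1.07 to 1.32) and PRPF4 63.9 and 74.4 CPM (ratio 1.17, 1.08 to 1.26). Their summed ratio of 1.17 (1.10 to 1.25) lies below the interval of the U5 proteins. SNRNP200 held 7328 of the 12974 U5 counts under the knockout label. Gene by gene, the interval of SNRNP40 overlaps those of PRPF3 and PRPF4, and the interval of PRPF6 overlaps that of PRPF3. The contrast between U5 and U4/U6 lacks PRPF8 and PRPF31, and it compares these libraries only. It also leaves out proteins of both particles that are not in the core list. Of these, PPIH and SNU13 of U4/U6 had ratios of 1.64 and 0.993. DDX23, TXNL4A and CD2BP2 of U5 had 1.69, 1.22 and 0.896. The contrast is thus one of the named genes and not of the whole particles.

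Of the PRP19 complex, PRPF19 was the highest. This ubiquitin ligase had 137 CPM in control cells against 254 CPM under the knockout label (ratio 1.86, 1.77 to 1.95). CDC5L, a core partner, had 92.9 and 135.5 CPM (ratio 1.46, 1.37 to 1.55) and PLRG1 106 and 130.5 CPM (ratio 1.24, 1.16 to 1.31). BUD31 had 75.5 and 72.6 CPM, with an interval that held 1 (ratio 0.962, 0.892 to 1.04). PRPF38A, which joins with the tri-snRNP, had 56.3 and 72.8 CPM (ratio 1.30, 1.20 to 1.40). The 5 genes had a median log2 ratio of 0.37 and a summed ratio of 1.42 (1.39 to 1.46).

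By summed counts, the ratio of the sub-complexes thus ran from 1.09 for the LSm ring, through 1.19 for U2 and 1.20 for U1, to 1.39 for the Sm ring, 1.42 for the PRP19 group, 1.48 for the tri-snRNP and 1.999 for SF1 with U2AF2. The intervals of U1 (1.16 to 1.24) and U2 overlap, as do those of the Sm ring and the PRP19 group and those of the PRP19 group and the tri-snRNP. No test of these differences was possible. The order by summed counts is unaffected by scaling, which multiplies each ratio by the same factor. It does depend on the measure, since abundant genes weigh most in a sum. SNRNP200 held 7328 of the 14870 tri-snRNP counts under the knockout label. By median log2 ratio the Sm ring (0.51) stood above the tri-snRNP (0.42) and the PRP19 group (0.37), and U1 (0.36) above U2 (0.22).

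**Figure D3:**
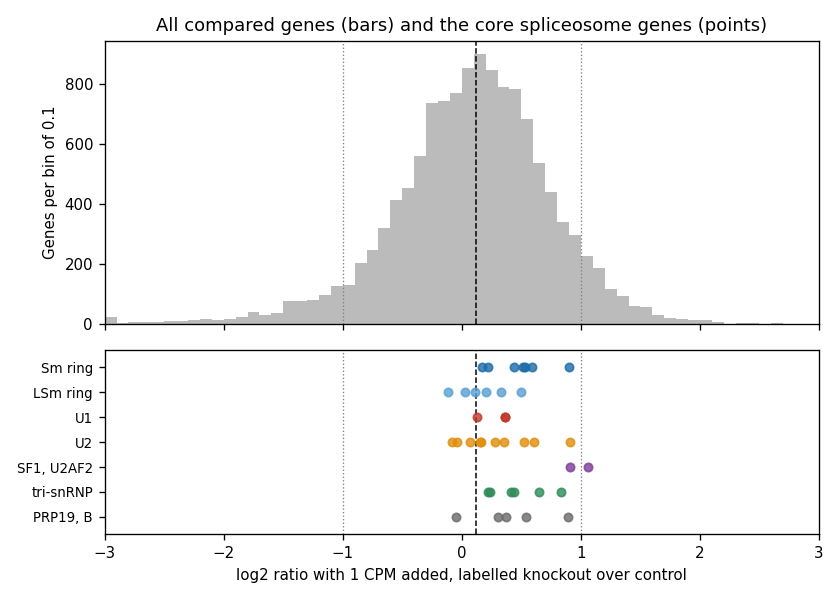
Upper panel: number of measured genes in each bin of the log2 ratio (1 CPM added; 12644 genes, the outermost bins hold all genes beyond them); lower panel: the 39 core subunits, 1 row per sub-complex. The dashed line is the median of all genes (0.12) and the dotted lines mark 2-fold; 32 of the 39 points lie to the right of the dashed line, and SF1 is the point beyond the right dotted line.

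Features of the genes that the choice of symbols did not use were set beside the ratios. Across the 39 genes the log2 ratio had a Spearman rho of 0.10 with transcript length (GENCODE release 29 principal transcripts) and of 0.24 with mean CPM, with Pearson r of 0.09 and 0.24. These are correlations across genes of the same 2 libraries, and genes are not independent replicates. The 20 genes with a transcript of at most 2157 bases had a median log2 ratio of 0.36, and the 19 longer ones 0.33. Of the 39, 9 overlap another measured gene in the annotation, all 9 of them at least once on the opposite strand. Examples are SF3A2 with PLEKHJ1 (67.5 and 108.0 CPM) and BUD31 with PTCD1 (30.1 and 56.6 CPM). Whether counting used strand is not stated, so reads of such pairs may not be told apart. Annotated pseudogenes named for the members, 72 symbols, held 15 control counts in all and 10 under the knockout label.

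Promoter sequence was available for 35 of the 39 measured subunits (RefSeq, GRCh38.p14). The 250 bases before the start of transcription are printed for the 3 highest and the 2 lowest of the 35, to show what stands before genes at either end of the range. They are written 5′ to 3′ along the gene, in lower case, with capitals for exact matches on either strand to 5 motifs. These were the CCAAT box, the GC box with the letters GGGCGG, the core bound by ETS factors with the letters CCGGAAG, the TATA box with TATAAA and the E-box with CACGTG. SF1 (chr11:64778543-64778792, minus strand) has 3 CCAAT matches and 2 GC boxes, SF3B4 (chr1:149927804-149928053, minus strand) 3 GC boxes and 1 ETS core, and U2AF2 (chr19:55654785-55655034, plus strand) 6 GC boxes, some of which overlap, and 1 ETS core. LSM3 (chr3:14178567-14178816, plus strand) has 1 GC box, and SF3B2 (chr11:66052114-66052363, plus strand) 2 ETS cores.
SF1: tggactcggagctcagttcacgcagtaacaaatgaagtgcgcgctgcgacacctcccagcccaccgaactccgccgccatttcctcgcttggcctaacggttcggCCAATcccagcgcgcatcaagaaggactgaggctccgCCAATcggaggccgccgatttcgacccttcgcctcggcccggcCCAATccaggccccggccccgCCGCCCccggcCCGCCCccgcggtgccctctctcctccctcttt
SF3B4: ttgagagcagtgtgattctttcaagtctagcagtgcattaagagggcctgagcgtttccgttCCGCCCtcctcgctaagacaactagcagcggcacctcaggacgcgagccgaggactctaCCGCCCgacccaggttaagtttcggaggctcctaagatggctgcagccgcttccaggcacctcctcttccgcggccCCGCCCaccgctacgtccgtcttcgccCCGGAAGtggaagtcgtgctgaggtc
U2AF2: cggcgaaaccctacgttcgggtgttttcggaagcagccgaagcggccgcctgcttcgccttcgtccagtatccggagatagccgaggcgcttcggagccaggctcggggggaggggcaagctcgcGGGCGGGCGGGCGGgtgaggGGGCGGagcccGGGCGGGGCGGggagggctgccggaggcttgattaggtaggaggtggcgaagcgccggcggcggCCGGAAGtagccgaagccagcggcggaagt
LSM3: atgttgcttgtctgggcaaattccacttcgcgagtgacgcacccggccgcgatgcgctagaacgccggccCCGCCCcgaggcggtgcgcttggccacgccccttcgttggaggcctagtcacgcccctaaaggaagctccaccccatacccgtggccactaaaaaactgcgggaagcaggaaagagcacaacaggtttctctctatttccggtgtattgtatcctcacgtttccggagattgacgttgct
SF3B2: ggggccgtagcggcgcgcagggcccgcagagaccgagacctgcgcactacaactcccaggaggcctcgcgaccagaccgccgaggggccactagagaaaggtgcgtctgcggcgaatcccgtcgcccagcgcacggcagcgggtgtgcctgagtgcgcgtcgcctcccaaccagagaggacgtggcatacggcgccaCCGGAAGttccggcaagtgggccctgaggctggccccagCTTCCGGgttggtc

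Over the 35 promoters, 18 (51.4%) held the ETS core, against 16.6% of the 9370 measured genes with an entry and 8.82% of all 27305 promoters. The GC box was in 22 of the 35 (62.9%, against 68.2% of measured genes and 42.3% of all) and CCAAT in 13 (37.1%, against 35.2% and 33.0%). TATAAA was in 1, that of SNRPC (2.86%, against 4.89% and 11.1%). The E-box CACGTG was in those of EFTUD2 and SF3B1 (5.71%, against 8.90% and 6.49%). Set beside the ratios, the median log2 ratio was 0.29 with an ETS core and 0.37 without, 0.35 with CCAAT and 0.36 without, and 0.36 with a GC box and 0.22 without. A match is a run of letters and not a site shown to be bound.

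Further genes linked to the spliceosome were taken as 96 genes in 8 lists, 1 of which holds Sm and LSm relatives that act outside it. Of these, 92 were measured and 7 passed the rule upwards (6.78% of all genes did) and 0 downwards. Their median log2 ratio was 0.35 (-0.80 to 1.78; SD over genes 0.47). The list of snRNP assembly and export factors held 3 of the 7 higher genes among 17 measured (median 0.48). GEMIN5, which recognises snRNAs for the SMN complex, had 37.0 CPM in control cells against 94.96 CPM under the knockout label (ratio 2.57, 2.36 to 2.80). WDR77, partner of the PRMT5 methyltransferase that modifies Sm proteins, had 35.8 and 87.8 CPM (ratio 2.45, 2.25 to 2.68). TGS1, which forms the trimethylated cap of snRNAs, had 29.3 and 66.6 CPM (ratio 2.28, 2.06 to 2.51). SMN1 and SMN2, which are near-identical copies of each other, had 5 and 4 counts and 0 and 0 counts, and are not read as levels.

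Further U2-linked proteins had 2 of 14 measured genes higher (median 0.50). U2SURP had 100.1 and 227 CPM (ratio 2.27, 2.15 to 2.39), and SUGP1 18.6 and 39.7 CPM (ratio 2.13, 1.88 to 2.42). SMNDC1, in the same list, had the lowest log2 ratio of the 92, with 76.9 and 43.8 CPM (-0.80). Of the 7 proteins of the minor spliceosome, which removes a rare class of introns, SNRNP25 was higher (12.5 and 45.5 CPM; ratio 3.64, 3.16 to 4.19), the highest of the 92, and the list's median was 0.33. Of 18 further PRP19-linked and B complex proteins WBP4 was higher (25.3 and 58.5 CPM; ratio 2.31, 2.08 to 2.57; median 0.25).

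In the other 4 lists 0 genes passed the rule in either direction. Of further U1-linked proteins (9 measured) 4 reached 1.5-fold upwards, against 20.3% of all genes, and RBM25 had 118 and 153 CPM. Further tri-snRNP proteins (12 measured) had a median of 0.31, with SNU13 at 143 and 142 CPM and SART3 at 85.9 and 146 CPM. Catalytic step and release factors (9 measured) had a median of 0.38, with CDC40 at 71.8 and 70.9 CPM and SLU7 at 64.0 and 64.2 CPM. Sm and LSm relatives outside the spliceosome (6 measured) had a median of 0.10, with LSM14B at 70.9 and 93.8 CPM and LSM12 at 52.3 and 42.0 CPM.

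Regulators that bind the transcript were set beside the core subunits as 2 lists. Of 13 measured SR splicing factors and SR-related proteins 7 were higher and 0 lower, against 1 and 0 of 39 core subunits and 6.78% and 5.69% of all genes. Their median log2 ratio was 1.04 (-0.39 to 1.86), against 0.36 for the core subunits. SRSF6 had 60.7 and 223 CPM (ratio 3.68, 3.45 to 3.92) and SRSF2 54.0 and 177 CPM (ratio 3.28, 3.07 to 3.52), after which came SRSF3, SRSF8 and SRSF1 with ratios of 3.19, 3.05 and 2.69. Of 27 hnRNP and related proteins 3 were higher and 0 lower, against the same shares of all genes, and their median of 0.38 (-0.58 to 2.81) was near that of the core subunits. HNRNPM led them (ratio 7.07, 6.71 to 7.44), followed by HNRNPU (3.002, 2.92 to 3.09) and HNRNPAB (2.12, 2.05 to 2.20). With each other scaling SUGP1, SRSF10 and HNRNPAB no longer passed the rule, which left 6 of the 92 genes, 6 SR factors and 2 hnRNP genes. HNRNPH1, HNRNPL, HNRNPR, PUF60 and LSM14A each stand on 2 rows, and their values (733 and 836, 58 and 46, 18 and 30, 85 and 125, and 78 and 54 counts) are uncertain, as are those of the members on several rows. No test of the difference between these lists and the core subunits was possible with 1 library per group.

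**Figure D4:**
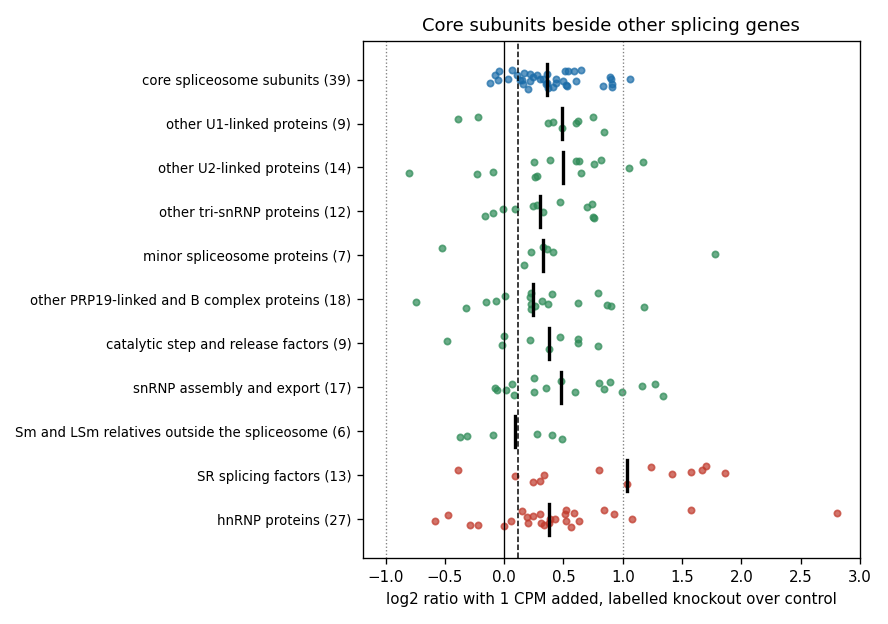
log2 ratio (1 CPM added; library labelled knockout over control) of each measured gene in the core subunits (blue), 8 lists of further linked genes (green) and 2 lists of splicing regulators (red), the number of genes in brackets; points are spread vertically for legibility. Black bars are list medians, 0.36 for the core subunits and 1.04 for the SR factors, the dashed line is the median of all genes and the dotted lines mark 2-fold.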

How the data were processed

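The authors deposited a table of raw counts per gene symbol for each library, 58173 rows in the same order. Reads were aligned with TopHat to GRCh38, per the submitters' processing notes. The version, counting program, annotation and use of strand are not stated in the sources at hand, and the kit is directional per the labels' protocols. Rows of 1 symbol were summed and scaled by the library total. A gene with no counts could have up to 3 (0.137 and 0.183 CPM). Intervals cover counting error only, and reads without molecular identifiers are not independent molecules. Values were computed with Python 3.11.15 and scipy 1.17.1, and scaling factors with edgeR 4.0.16. The procedure was also run on simulated counts that hold counting error only. Such a run cannot show how the procedure fares with spread between cultures. Named were members past the rule, the extremes and the most abundant of each sub-complex, members on several rows or with copies, and in other lists up to 5 genes past the rule in each direction, otherwise the 2 most abundant, of which 1 gene is not reported here; the remaining genes in the text were chosen after their values were seen. Members and lists were chosen with earlier results of these data known. Alternatives were other pseudocounts, filters, size rules and scalings, and symbols on a single row.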

Additional observations from a re-analysis of the deposited data

How the results depend on the processing

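With 1 library per group no replicate could be left out, and no statement here reaches beyond these 2 libraries. No paired analysis was possible because each group has 1 library. The median of the 39 subunits, 0.36, was 0.34 with a pseudocount of 5 CPM. It was 0.24, 0.22 and 0.20 with TMM, the upper quartile and the median of gene ratios, under each of which 0 subunits passed the 2-fold rule in place of 1. In the same order the sub-complex medians were 0.39, 0.37 and 0.35 for the Sm ring, 0.03, 0.01 and 0.00 for the LSm ring, 0.24, 0.22 and 0.20 for U1, 0.10, 0.08 and 0.06 for U2, 0.86, 0.84 and 0.83 for SF1 with U2AF2, 0.30, 0.28 and 0.27 for the tri-snRNP, and 0.25, 0.23 and 0.21 for the PRP19 group. The shift is the scaling's own construction, the same for each gene. Without the filter on low values the LSm median was 0.11 and that of the branch site factors 0.91, as LSM2 and U2AF1 then enter. With a 1.5-fold rule 9 subunits were higher, and with a 3-fold rule 0. The 0 lower subunits remained 0 under each alternative run. A pseudocount of 0.1 CPM moved the median of SF1 with U2AF2 from 0.98 to 0.99 and that of the tri-snRNP from 0.42 to 0.43. The other sub-complex medians were unchanged by it at 2 decimals. A minimum mean of 5 CPM and single-row symbols could not change these medians. The lowest mean among the 39 was 23.9 CPM, and all 39 stand on 1 row.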

Other observations

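The RNA parts of the spliceosome were barely seen in these libraries. Of 1788 symbols that begin with RNU or RNVU, the names of small nuclear RNA genes and their pseudogenes, 19 had counts, 85 of them in control cells and 114 under the knockout label (3.88 and 6.95 CPM in all). RNU2-1, which encodes U2, held the most, with 55 and 56 counts. RNU4-2 and RNU4-1, which encode U4, had 11 and 16 counts and 5 and 17 counts. Whether the library preparation keeps such short RNAs is not stated, and these counts are not read as levels.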
